A study of Mus musculus with 18 samples.

Results

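The collagen gene family was followed through all libraries of a study of pressure and volume load in the left ventricle of the mouse. Members were taken as every annotated mouse gene whose symbol reads Col, digits, a, digits, which gave 44 genes of the 38355 in the count tables. Of these, 38 had enough reads to be tested. The other 6, Col2a1, Col6a4, Col9a1, Col10a1, Col19a1 and Col24a1, had at most 13 counts in any library and are described no further. The study compared 4 groups of (DBA/2J x C3HeB/FeJ)F1 mice. WT mice (n = 5) carried no transgene and had no surgery. The 3 other groups were labelled as carrying MHC-cycD2, a cyclin D2 transgene under a myosin heavy chain promoter of heart muscle cells, and as operated on at 8 weeks of age: 5 mice in cycD2 sham, 5 in cycD2 Shunt, and 3 in cycD2 TAC, whose replicates are numbered 1, 2 and 4. TAC narrows the transverse aorta and loads the ventricle with pressure, while the Shunt joins aorta and vena cava and loads it with volume. The labels describe a sham for each procedure without saying which one the sham mice had, and do not give the sex, the hour or the time from surgery to sampling for each library.

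Collagens are triple-helical proteins of the extracellular matrix, built from chains with regularly spaced glycines. The fibrillar types bear tension and make up most of the scar and interstitial matrix of the heart, where fibroblasts are their main source. Type IV networks form the basement membrane around muscle cells and capillaries, and the other classes decorate fibrils, link them to cells or form their own lattices. Pressure load is known to raise the collagen content of the ventricle.

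Each library held 19297821 to 30594075 reads assigned to genes, and the 44 collagen genes took 0.236% to 0.332% of them in WT, 0.193% to 0.373% in sham, 0.655% to 1.23% in TAC and 0.203% to 0.456% in Shunt. Several libraries stood apart from their labels or from their group. The library labelled cycD2 TAC replicate 2 had Ccnd2 at 228 CPM (counts scaled to library size), near WT (141 to 189) and far below the 12 others labelled cycD2 (17740 to 30480), so its Ccnd2 goes against its genotype label. Xist was high and the Y-linked Ddx3y nearly absent in TAC replicates 1 and 2 and in every Shunt library, and the reverse held in TAC replicate 4 and every WT and sham library. Of the clock genes, Arntl exceeded Dbp in every TAC library, in sham replicates 1 and 2 and in the first 3 replicates of WT, and Dbp exceeded Arntl in the others. Myl7, a myosin light chain of the atria, reached 84.9 to 319 CPM in 6 libraries (sham 2 and 5, TAC 2 and 4, Shunt 2 and 4) and did not exceed 11.5 CPM in any other. In tissue RNA, fewer cells of a type and less RNA per cell cannot be told apart. The heart muscle markers were abundant in every library, with 59470 to 96420 CPM summed over 8 genes.

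Compared per length of exon in WT, basement membrane chains were the most abundant collagen transcripts of the ventricle. Col4a1 stood at 95.0 ± 17.3 CPM per kb (SD, n = 5) and its partner chain Col4a2 at 82.0 ± 10.4, with Col4a1 above Col4a2 in 5 of 5 libraries. Col3a1, the chain of the fine type III fibrils, followed at 40.1 ± 8.03 CPM per kb. The next places, Col6a1 (27.8 ± 1.83), Col15a1 (26.7 ± 4.37) and Col1a1 (24.8 ± 2.83), did not differ beyond their spread. Summed per class, the 6 type IV chains made up 48.6% ± 2.13 (SD, n = 5) of the per-length collagen signal in WT and the 11 fibrillar genes 26.7% ± 1.803, while beaded filament genes held 13.4% ± 1.08 and multiplexins 7.89% ± 0.265. FACIT, hexagonal, transmembrane and remaining genes together gave the small rest. The class shares depend on the length used: with the longest transcript in place of all exons, WT had 41.5% type IV and 33.8% fibrillar signal.

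In TAC the whole per-length signal was 1197 ± 294 CPM per kb (n = 3) against 360.3 ± 87.1 in sham, 389 ± 46.8 in WT and 451 ± 138 in Shunt. Col4a1, Col4a2 and Col3a1 held the first 3 places, by group mean, in every group. Col1a1 held the fifth place by group mean in sham (28.5 ± 11.5 CPM per kb). There Col6a1 lay above Col1a1 in 3 of 5 libraries, and Col1a1 above Col15a1 in 2 of 5, so its place was within the spread. In TAC Col1a1 held the fourth place (141 ± 61.8), above the next gene in 3 of 3 libraries. This order depends on the length used: per kb of the longest transcript, TAC ran from Col3a1 (279.9 CPM per kb) over Col4a1 (265.8), Col4a2 (197.6) and Col1a2 (174.7) to Col1a1 (156.1), and Col1a2 also held the fourth place in sham (44.98). Fibrillar genes held 28.4% to 43.0% of the family in the TAC libraries and 23.7% to 33.0% in sham, so the ranges overlapped, as did those of type IV (30.9% to 47.7% and 38.4% to 49.8%).

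**Figure D1:**
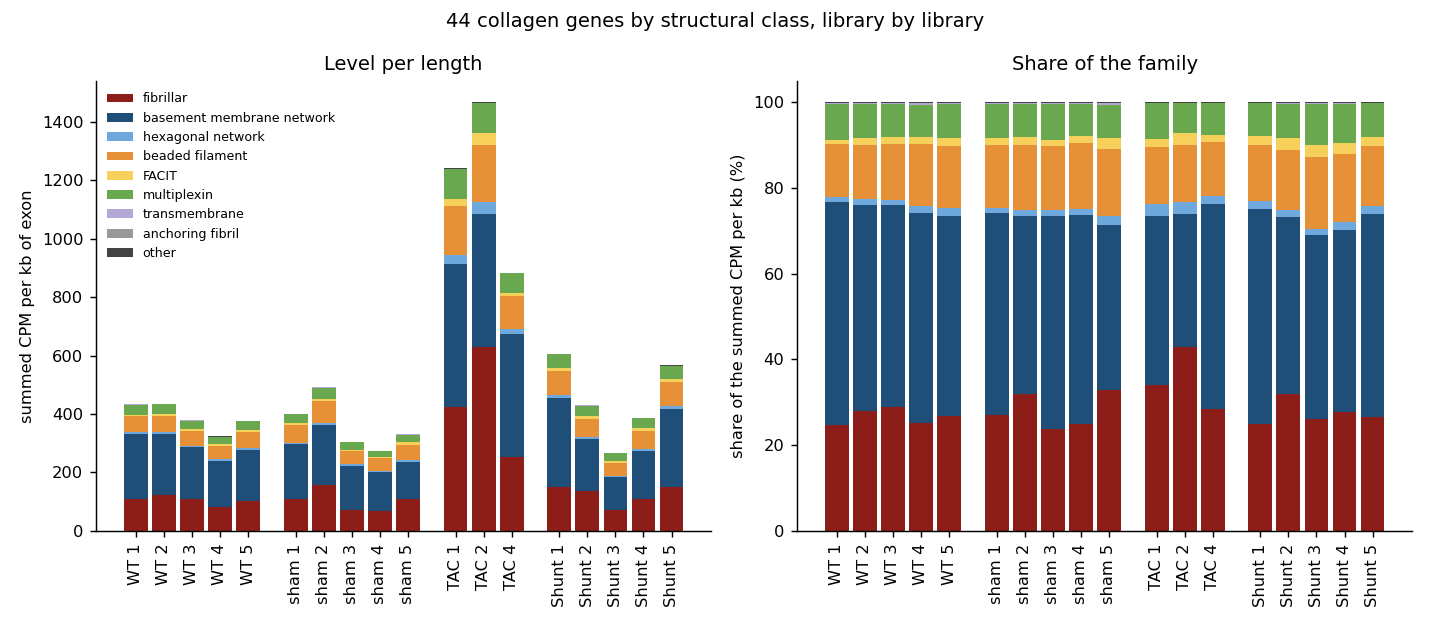
Left, collagen transcript level per library, as CPM per kb of exon summed over 44 genes and stacked by structural class; right, the same as a share in percent. Bars are single libraries of the 4 groups, numbered by replicate. The 3 TAC libraries (883.5 to 1467) lie above every other library (266 to 606).

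The comparison of cycD2 sham with WT asks how the transgenic, sham-operated ventricle differs from the unoperated WT one, so genotype and surgery cannot be told apart in it. Few collagens differed. Of the 38 tested, 1 was higher and 2 were lower at a Benjamini-Hochberg adjusted p under 0.05 in edgeR's quasi-likelihood test, where 13.5% of all genes were called higher and 14.9% lower. The median log2 fold change of the collagens was -0.06, and that of all genes -0.014. Col23a1, a transmembrane collagen, was at 3.70 to 5.62 CPM in WT and 1.79 to 3.67 in sham, without overlap (10.6% of all genes were higher and 11.7% lower without overlap), a log2 fold change of -0.70 (adjusted p = 0.0152). Col13a1, another transmembrane collagen found at muscle contacts, fell by 0.75 on that scale (0.0299), with overlapping groups. The rise of Col7a1, the anchoring fibril collagen, by 1.35 (0.0094) rests on 2 to 6 counts per library in WT and 10 to 14 in sham. These genes lie outside the rule for naming genes and were chosen after their values were seen. None of the 3 passed when only libraries with Arntl above Dbp, or only those with Dbp above Arntl, were compared. All 3 kept their sign in both splits, which compare fewer libraries. Calls among all genes fell too, from 2004 higher and 2223 lower to 487 and 652 with Arntl above Dbp. With Dbp above Arntl they were 949 and 860. Another pair of genes did not overlap and missed the threshold: Col4a4 at -0.41 (0.0582) and the transmembrane Col25a1 at -0.77 (0.0586). The abundant fibrillar chains gave 0.20 ± 0.29 (SE) for Col1a1 and -0.16 ± 0.30 for Col3a1, neither of which passed.

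Most of the family was higher under pressure load. In TAC against sham, 29 of the 38 tested collagens were higher and none was lower, against 16.4% of all genes called higher and 14.5% called lower. Of these 29, 27 rose at least 2-fold (4.97% of all genes did), and in 27 the lowest TAC library lay above the highest sham library (14.5% of all genes). At an unadjusted p under 0.05, 1 collagen (Col20a1) was lower, and the share of all genes under that rule was not counted. DESeq2 and limma-voom called 0 collagens lower, where they called 2423 and 2188 of all 14876 genes lower. The median log2 fold change over the tested collagens was 1.53, and 0.007 over all genes. The rise covered 8 of 9 tested fibrillar genes, 5 of 6 type IV, 2 of 2 hexagonal, 4 of 5 beaded filament, 5 of 7 FACIT and 2 of 2 multiplexin genes, but 1 of 4 transmembrane ones. The library labelled TAC replicate 2 was the highest of the 3 libraries in 19 of the 29 genes and replicate 4 the lowest in 26. Of 21 genes with at least 5 CPM in sham, 19 rose, as did 10 of 17 with less.

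**Figure D2:**
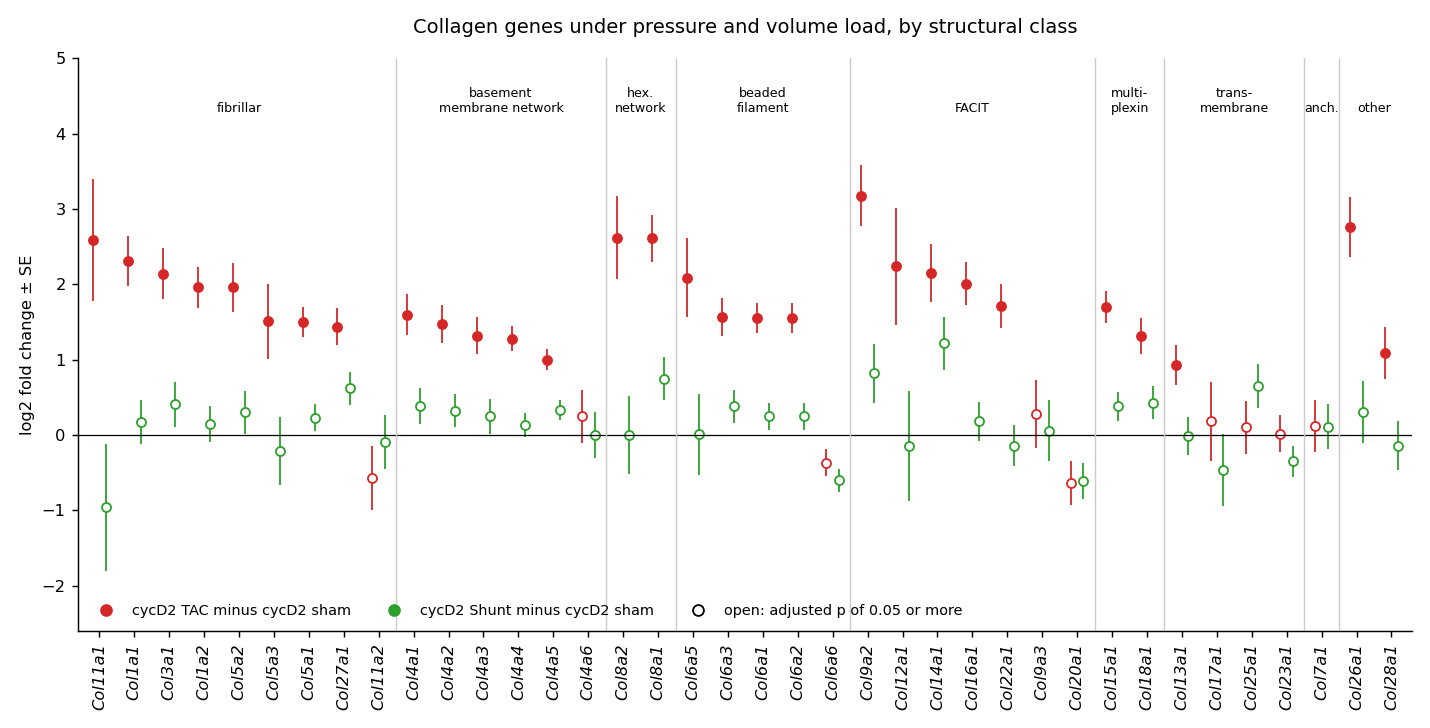
Log2 fold change ± SE of the 38 tested collagen genes, grouped by class, in cycD2 TAC (red) and cycD2 Shunt (green) against the same cycD2 sham libraries. Filled points had an adjusted p under 0.05: 29 red ones and no green one.

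Among the fibrillar collagens, Col1a1 (ENSMUSG00000001506, GRCm38 chromosome 11, 94936224 to 94953042), the major chain of type I fibrils, was at 183.8, 298, 119, 118 and 217 CPM in sham replicates 1 to 5 and at 900.2, 1344 and 533 in TAC replicates 1, 2 and 4. Every TAC library lay above every sham library. The log2 fold change was 2.31 ± 0.33 (SE; adjusted p = 1.17e-04), or 4.94-fold. Its partner chain Col1a2 was at 218, 327, 178, 173 and 307 CPM in sham and at 922.5, 1346 and 534 in TAC, a rise of 1.96 ± 0.27 (8.14e-05). Col3a1 was at 408, 562, 246, 233 and 319 CPM in sham and at 1496, 2316 and 861 in TAC, a rise of 2.14 ± 0.34 (2.55e-04). It lies 24614 bp from Col5a2, tail to tail on chromosome 1.

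Type V chains co-assemble with type I and set the width of its fibrils. Col5a1 was at 72.5, 96.7, 65.4, 56.6 and 73.7 CPM in sham and 198, 279 and 144.5 in TAC, a 2.84-fold rise (SE 0.20 on the log2 scale; 5.42e-05). Col5a2 rose by 1.96 and Col5a3 by 1.51 (0.0309). Type XI and type XXVII, better known from cartilage, were low in the ventricle and rose too: Col11a1 by 2.59 (0.0227) to 6.96 ± 3.49 CPM (SD, n = 3) and Col27a1 by 1.44 to 8.08 ± 3.16. Col11a2 was the tested fibrillar gene that did not pass, at 2.08 CPM in TAC and 3.06 in sham.

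The type IV chains rose less on the log2 scale than the type I and III chains, a difference that was not tested. Col4a1 was at 703, 758.5, 535, 479 and 430.5 CPM in sham and at 1880, 1788 and 1608 in TAC. Its rise was 1.60, that of Col4a2 1.47, that of Col4a3 1.32 and that of Col4a5 1.00. Col4a4, with Col4a3 and Col4a5 a chain of the network best known from the kidney glomerulus, was at 6.37, 8.52, 8.46, 6.30 and 8.45 CPM in sham and 20.7, 19.8 and 15.2 in TAC, a rise of 1.28 ± 0.17 (4.89e-05). Col4a6, at 6.95 CPM in TAC and 5.86 in sham, did not pass. The exons of Col4a1 and Col4a2 overlap by 22 bp at their starts on opposite strands, and the library kit does not keep the strand.

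Type VIII forms hexagonal lattices in vessel walls and in remodelling tissue. Col8a1 (ENSMUSG00000068196, chromosome 16, 57624258 to 57754737) was at 30.2, 43.4, 33.1, 27.1 and 45.7 CPM in sham and at 232, 298 and 128 in TAC. The groups were far apart, with a log2 fold change of 2.61 ± 0.31 (3.56e-05), or 6.10-fold. Col8a2, the second chain, rose by 2.62 from a mean of 2.54 CPM.

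Type VI chains form beaded microfibrils near the cell surface. Col6a1 was at 138, 177, 110.3, 103 and 124 CPM in sham and 399, 480.4 and 266 in TAC, a rise of 1.55 ± 0.20 (5.53e-05). Its neighbour Col6a2, on the same strand of chromosome 10, was at 159.5, 206, 119, 116 and 142 CPM in sham and 451.5, 539.5 and 312 in TAC, a rise of 1.55 ± 0.20 (4.67e-05). Col6a3, their long partner chain, was at 81.2, 91.7, 50.6, 44.7 and 55.4 CPM in sham and 218.5, 215 and 143.5 in TAC, a rise of 1.57 ± 0.25 (2.36e-04). These 3 chains of one heterotrimer thus had fold changes within 0.02 of each other. Col6a5, a rare alternative to Col6a3, rose by 2.09 (0.0058) from 0.4662 CPM. Col6a6, another alternative, went the other way in value, at 14.8 CPM in sham and 11.5 in TAC, and did not pass (-0.37, adjusted p = 0.1294).

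The largest rise of the family among those called was in a FACIT, a class that sits on the surface of fibrils. Col9a2 (ENSMUSG00000028626, chromosome 4, 121039385 to 121055322), a chain of cartilage type IX collagen, was at 0.523, 0.490, 0.552, 0.593 and 0.398 CPM in sham and at 5.23, 6.86 and 1.89 in TAC. The rise was 3.18 ± 0.40 (2.83e-05), or 9.06-fold. Of its partner chains, Col9a3 was at 0.418 CPM in TAC and 0.343 in sham and did not pass, and Col9a1 was too low to test. Cartilage markers did not move together either, with 2 of 5 tested higher and 1 lower, and their summed level was 3.91 to 26.0 CPM in sham and 9.88 to 24.5 in TAC.

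Other FACIT genes rose as well. Col16a1 was at 13.5, 19.8, 9.24, 10.1 and 18.8 CPM in sham and 57.3, 82.7 and 33.2 in TAC, a rise of 2.01 ± 0.29 (1.03e-04). Col22a1, known from muscle-tendon junctions, was at 1.57, 1.85, 1.70, 3.74 and 2.74 CPM in sham and 7.15, 11.1 and 4.55 in TAC, a rise of 1.71 ± 0.29 (2.62e-04). Col14a1 rose by 2.15 (7.12e-04) and Col12a1 by 2.24 (0.0412), the latter with overlapping groups. Col20a1 did not pass, at 1.58 CPM in TAC and 2.47 in sham.

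The multiplexins are proteoglycan collagens of basement membrane zones. Col15a1 (ENSMUSG00000028339, chromosome 4, 47208161 to 47313167), a stabiliser of muscle and capillaries, was at 192.5, 215, 145, 116 and 139.5 CPM in sham and at 599.7, 598 and 380 in TAC. The groups did not overlap, and the rise was 1.70 ± 0.21 (3.78e-05), or 3.25-fold. Col18a1, whose C-terminal fragment is endostatin, rose by 1.32. Of the remaining genes, Col26a1 rose by 2.76 (8.78e-05) to 2.79 CPM, Col28a1 by 1.09 (0.0204) with overlap, and Col13a1 by 0.93 (0.0159), while Col7a1, Col17a1, Col23a1 and Col25a1, all under 3.1 CPM in each TAC library, did not pass. Col26a1, Col6a5 and Col13a1 lie outside the rule for naming genes and are given to account for every call.

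**Figure D3:**
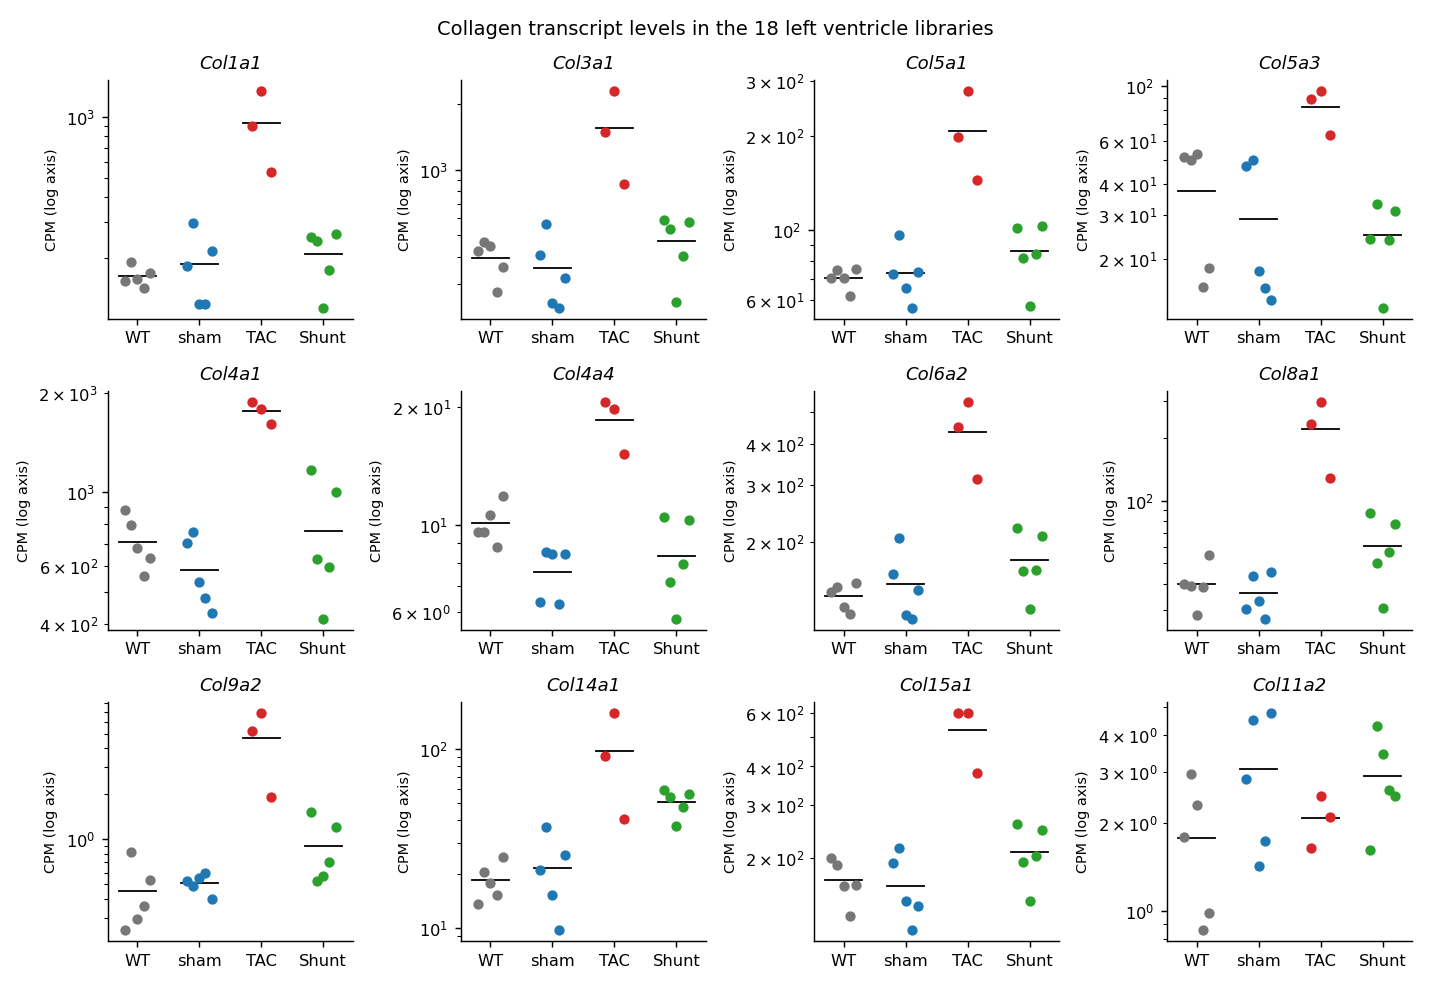
Level of 12 collagen genes in each library, in CPM on a log axis; each point is a library of WT (n = 5), cycD2 sham (n = 5), cycD2 TAC (n = 3) or cycD2 Shunt (n = 5), placed by replicate number from left to right, and lines are group means. Col1a1 was at 533 to 1344 CPM in TAC and 118 to 298 in sham, and Col14a1 at 37.0 to 58.9 in Shunt and 9.77 to 36.8 in sham.

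Upstream sequence was read because most members moved together in TAC. RefSeq windows of 250 bases before the RefSeq start site (GRCm38.p6) were found for 35 of the 44 genes, in 38 windows. Col1a1 had none. The RefSeq start can differ from the annotated gene start, and many of these windows overlap annotated exons. That of Col1a2 (4505368 to 4505617) lies past the annotated start of its gene (4504814). The counts below include all such windows, so they are not shares of upstream sequence alone. Both strands were searched for a few known promoter elements. The letters CCAAT were in 13 of the 38 collagen windows, against 33.8% of 32851 mouse windows of that length. The TATA box, searched as TATAAA, was in 5 windows (12.4% of all). The GC box, searched as GGGCGG, was in 22 windows (32.7%). The SMAD box, searched as CAGACA, was in 9 windows (17.1%). The AP-1 site, searched as TGANTCA, was in 1 window (6.75%), that of Col6a1, which lies partly inside the annotated gene. Among the 22 genes with a window that rose in TAC, 7 held a SMAD box and 14 a GC box, and among the 8 tested ones that did not rise, 2 and 6. A match is a string of letters and not a shown binding site.

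Below are the 250 bases before the RefSeq start of 4 genes that rose in TAC without overlap. They stand for type III, type V, type VIII and type XV. The window of Col5a3, whose level split the libraries in another way, is given as well. None of these windows overlaps an annotated exon. Each is written 5′ to 3′ on the strand of its gene, with matches to any of the searched motifs, on either strand, in capitals. No printed match overlaps another.
Col3a1 (chr1:45311288-45311537, plus strand): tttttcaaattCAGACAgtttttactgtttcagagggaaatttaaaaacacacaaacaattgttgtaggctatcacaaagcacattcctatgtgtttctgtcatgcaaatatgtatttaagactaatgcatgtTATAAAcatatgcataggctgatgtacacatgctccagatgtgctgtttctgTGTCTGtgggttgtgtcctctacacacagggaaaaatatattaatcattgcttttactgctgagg
Col5a1 (chr2:27886175-27886424, plus strand): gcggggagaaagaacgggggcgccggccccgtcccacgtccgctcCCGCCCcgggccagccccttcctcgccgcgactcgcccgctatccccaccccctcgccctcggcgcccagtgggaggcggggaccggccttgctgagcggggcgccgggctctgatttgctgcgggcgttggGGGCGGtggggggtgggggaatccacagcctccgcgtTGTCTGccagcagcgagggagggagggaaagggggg
Col5a3 (chr9:20815068-20815317, minus strand): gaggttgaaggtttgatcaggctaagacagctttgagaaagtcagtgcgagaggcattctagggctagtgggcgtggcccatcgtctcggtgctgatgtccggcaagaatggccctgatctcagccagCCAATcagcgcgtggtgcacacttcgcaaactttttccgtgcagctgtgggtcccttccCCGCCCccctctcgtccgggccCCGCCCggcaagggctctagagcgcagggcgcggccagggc
Col8a1 (chr16:57754738-57754987, minus strand): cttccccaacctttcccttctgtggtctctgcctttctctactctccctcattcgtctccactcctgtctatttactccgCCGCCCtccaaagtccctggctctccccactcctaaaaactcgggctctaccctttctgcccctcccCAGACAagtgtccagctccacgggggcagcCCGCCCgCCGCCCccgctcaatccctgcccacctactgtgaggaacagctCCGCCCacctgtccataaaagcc
Col15a1 (chr4:47207762-47208011, plus strand): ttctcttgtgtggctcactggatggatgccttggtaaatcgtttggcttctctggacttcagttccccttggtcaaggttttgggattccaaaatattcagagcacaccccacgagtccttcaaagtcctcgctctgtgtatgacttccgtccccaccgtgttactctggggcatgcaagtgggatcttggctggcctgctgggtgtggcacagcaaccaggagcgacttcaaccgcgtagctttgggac
Col3a1 holds a TATA box and a SMAD box on each strand. Col8a1 holds 4 GC boxes, all on the opposite strand, and 1 SMAD box, Col5a1 holds 2 GC boxes and 1 SMAD box, and Col5a3 a CCAAT and 2 GC boxes. The printed Col15a1 window holds none of these letters. It ends at 47208011, short of the annotated start of the gene at 47208161, so the bases between were not searched. Col15a1 rose in TAC like the others.

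Some type IV genes stand head to head. Between Col4a4 and Col4a3 lie 71 bases (chr1:82586850-82586920, GRCm38.p6), shown on the plus strand because both genes start at its ends.
Col4a4 to Col4a3: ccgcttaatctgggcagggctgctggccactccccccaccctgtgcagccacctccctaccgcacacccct
No searched motif lies in it. The log2 ratio of Col4a3 to Col4a4 was -0.28 in WT, -0.22 in sham, -0.16 in TAC and -0.13 in Shunt, and no difference between groups passed (two-sided exact permutation test, lowest p = 0.5079).

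Other genes of the pathway moved with the collagens in TAC. Of 31 genes for making and crosslinking collagen, 22 were higher and 2 lower, with a median log2 fold change of 0.62, where 16.4% of all genes were called higher and 14.5% lower. Those with the smallest p were P3h4, a partner of lysyl hydroxylase, at -0.87, Bmp1, which cleaves the C-propeptide, at 0.98, P4ha1, a prolyl hydroxylase subunit, at 1.56 and the N-propeptidase Adamts3 at -1.52. Of 10 tested collagen receptors 5 were higher, among them the uptake receptor Mrc2 (1.58) and the integrin subunit Itga11 (1.61), followed by Itgb1 (0.36) and Itga1 (0.46). Of 13 tested small leucine-rich proteoglycans and partners 7 were higher, with Lum at 1.39, Sparc at 1.57, Fn1 at 1.88 and Bgn at 1.91. Of 11 tested genes for collagen breakdown and its inhibitors 6 were higher, with Mmp2 at 1.39, Ctsk at 1.51, Fap at 0.98 and the inhibitor Timp1 at 3.56. P3h4 and Adamts3, which fell here, were higher in sham than in WT (0.70, adjusted p = 2.49e-06, and 1.11, 1.79e-04). P3h4 was at a mean of 28.3 CPM in WT, 45.9 in sham and 25.2 in TAC, and Adamts3 at 7.20, 15.5 and 5.42.

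Markers of several cell types were called in the same comparison, where 16.4% of all genes were higher and 14.5% lower, and their part in the rise of the collagens was not tested. Of 9 fibroblast markers 6 were higher in TAC (summed 2747 to 5589 CPM, sham 2088 to 3307), as were 6 of 8 activated fibroblast markers (1053 to 1991, sham 356 to 1048). Fibroblast markers were highest in the library labelled TAC replicate 2, as Col1a1 was, and activated fibroblast markers in TAC replicate 1. Of 8 endothelial markers 5 were higher (1318 to 1445 CPM, sham 972 to 1252) and of 8 smooth muscle and pericyte markers 4 were higher and 1 lower (1480 to 1675, sham 1365 to 1633). Of 8 heart muscle markers 1 was higher and 4 were lower (59470 to 90120 CPM, sham 86720 to 96420). No macrophage marker of 7 (301.5 to 495 CPM, sham 259 to 391) and no Schwann cell marker of 4 tested passed, and 1 of 6 mesothelial markers rose (8.85 to 14.05, sham 5.75 to 8.06), a share near that of all genes.

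Every one of the 29 rises kept its sign in each setting tried, while its call depended on a few libraries and covariates. With Y-linked expression as a covariate 9 of the 29 passed (Col4a1, Col4a2, Col4a4, Col5a1, Col6a1, Col6a2, Col8a1, Col9a2 and Col15a1), and Col1a1 was at 1.51 (adjusted p = 0.0666) and Col3a1 at 1.30 (0.1285), while the genes called higher among all 14876 went from 2440 to 287. Within groups, Y-linked expression differed strongly only between TAC replicate 4 and TAC replicates 1 and 2, so this covariate rests mainly on that contrast. Against the 2 sham libraries that, like TAC, had Arntl above Dbp, 22 passed, with 829 of all 14775 genes tested there called higher. Without TAC replicate 2, the library with Ccnd2 near WT, 25 passed, with 1633 of all 15033 genes tested there called higher. The 4 lost were Col5a3, Col11a1, Col12a1 and Col28a1.

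Volume load gave no called change in the family. In Shunt against sham, edgeR called none of the 38 tested collagens higher or lower, as it called 0.108% of all genes higher and 0.134% lower. At an unadjusted p under 0.05, 5 were higher and 2 lower, and the share of all genes under that rule was not counted. DESeq2 called 1 higher and 1 lower, and of all 14876 genes 116 higher and 116 lower. For limma-voom no collagen was called, and of all genes 12 higher and 20 lower. The median was 0.17 over the collagens and 0.004 over all genes. Col1a1 was at 255, 244, 114, 174 and 264 CPM in Shunt replicates 1 to 5, within the range of sham apart from a lowest library just below it, and its fold change was 0.17 ± 0.29 (SE; adjusted p = 0.8356). Shunt replicate 3 was the lowest of its group in 26 of the 29 collagens that rose in TAC, and replicate 1 the highest in 17.

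Col14a1, a FACIT that binds the surface of type I fibrils, had the largest difference. It was at 21.2, 36.8, 15.3, 9.77 and 25.7 CPM in sham replicates 1 to 5 and at 58.9, 54.2, 37.0, 47.4 and 56.01 in Shunt, and the groups did not overlap. Its log2 fold change of 1.22 ± 0.35 missed the threshold (adjusted p = 0.1691) in the main test and passed with DESeq2 (0.0350) and with the replicate block (1.34; 0.0463). With the Y-linked covariate it was at -0.64 (0.9408), and sex by these genes and the load cannot be told apart between Shunt and sham. The fibrillar Col27a1 was the other collagen without overlap, at 4.19 to 5.08 CPM in Shunt and 2.01 to 4.03 in sham (0.62; 0.2142), where 1.79% of all genes lay higher without overlap. Col8a1 was at 87.5, 50.2, 30.5, 56.8 and 77.6 CPM, a difference of 0.75 ± 0.28 (0.2339). Col6a6 was at 6.62 to 11.7 CPM in Shunt and 10.1 to 18.5 in sham (-0.60 ± 0.15; 0.1261), and DESeq2 called it lower (0.0232). None of the 4 pathway lists had a called gene in this comparison.

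Both loads were compared with the same sham libraries, so the direct comparison of Shunt with TAC tests how they differ. Here 28 of the 38 tested collagens were lower in Shunt and none was higher, against 13.6% of all genes called lower and 13.3% higher, with a median of -1.22 for the collagens and -0.009 for all genes. Of the 28, 24 were at least 2-fold lower (3.70% of all genes), and 27 collagens lay lower without overlap (12.5%). At an unadjusted p under 0.05, 0 were higher, and the share of all genes under that rule was not counted. DESeq2 and limma-voom called 0 collagens higher, where they called 2214 and 2020 of all 14876 genes higher. Col1a1 was at -2.14 ± 0.33 (SE; adjusted p = 3.17e-04), Col3a1 at -1.73, Col8a1 at -1.86 and Col15a1 at -1.32. The largest difference was that of Col11a1 (-3.54; 0.0060). Col14a1 was the 1 collagen that rose in TAC and did not pass here, at -0.93 ± 0.38 (0.0817), and the Shunt and TAC libraries overlapped in it. Once the clock difference entered as a covariate 17 of the 28 passed (all genes called lower went from 2030 to 1053), and since every TAC library had Arntl above Dbp and every Shunt library the reverse, load and clock phase cannot be told apart here. In the test against 1.5-fold 16 passed (255 of all genes were lower), and without the library labelled TAC replicate 2, 24 did (1357 of all genes).

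Ratios of chains within a library compare the movement of partners. Of 9 ratios in 4 comparisons (36 exact permutation tests) none passed after adjustment (lowest adjusted p = 0.2143). The smallest exact p is 0.0179 with 5 libraries against 3 and 0.0079 with 5 against 5. Over 36 tests a single ratio at that p could not pass after adjustment. The lack of calls therefore does not show that partners moved by the same amount. The log2 ratio of CPM of Col1a1 to Col1a2, the chains of type I collagen, was -0.24, -0.13, -0.58, -0.55 and -0.50 in sham replicates 1 to 5 and lay clear of these at -0.04, -0.00 and -0.00 in the TAC libraries. Its mean was -0.01 ± 0.02 (SD, n = 3) in TAC and -0.40 ± 0.20 (n = 5) in sham, an exact permutation p of 0.0357 before and 0.2143 after adjustment (two-sided). The sham libraries nearest to TAC were replicates 1 and 2, which share its clock phase. Shunt replicates 2 and 5, of the other phase, lay about as near, at -0.17 and -0.25. WT replicates 1 to 3, of the TAC phase, were further off at -0.55, -0.46 and -0.47, and WT replicates 4 and 5 were at -0.65 and -0.64. A link of this ratio to clock phase was not tested. The ratio of Col1a1 to Col3a1 was -1.16 ± 0.04 in Shunt and -0.74 ± 0.05 in TAC, again without overlap (exact p = 0.0179, adjusted 0.2143). That of Col4a1 to Col4a2 was 0.46 ± 0.07 in TAC and 0.33 ± 0.04 in sham (exact p = 0.0179, adjusted 0.2143). Col6a1 and Col6a2 kept the closest ratio, with group means of -0.19 to -0.16 and SDs of at most 0.07.

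**Figure D4:**
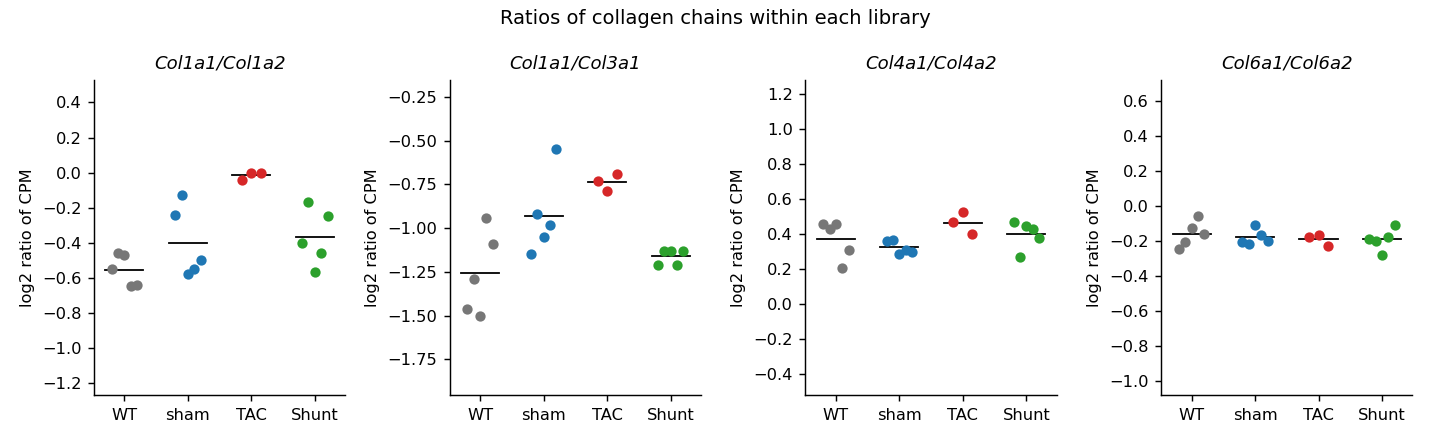
Log2 ratio of CPM of 4 pairs of collagen chains in each library, with group means as lines (WT, cycD2 sham and cycD2 Shunt n = 5, cycD2 TAC n = 3). Col1a1 to Col1a2 lay at -0.04 to 0.00 in TAC and between -0.58 and -0.13 in sham, while Col6a1 to Col6a2 stayed near -0.2 throughout.

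Within WT and within sham, Col5a3 split with the clock genes. This fibrillar type V chain was at 51.7, 50.1 and 52.9 CPM in WT replicates 1 to 3 and at 15.3 and 18.3 in replicates 4 and 5. In sham it was at 47.4 and 50.2 CPM in replicates 1 and 2 and at 17.8, 15.2 and 13.5 in replicates 3 to 5. In both groups the high libraries are those with Arntl above Dbp, and no value lies between 18.3 and 47.4 CPM. Shunt libraries, with Dbp above Arntl, were at 24.1, 33.3, 12.6, 23.7 and 31.1 CPM, and TAC libraries, with Arntl above Dbp, at 88.5, 96.0 and 63.2. The log2 fold change of TAC against sham was 1.51 over all libraries, 0.76 (adjusted p = 0.0207) against the sham libraries of the same phase and 0.59 (0.0237) in the fit with a clock covariate. For Shunt against TAC it was -1.73 (0.0186) and, with the covariate, -0.24 (0.4200). Of the 38 tested collagens, Col3a1, Col4a1 and Col6a3 also separated by phase in this direction within both WT and sham, and 0 in the other direction, where 8.56% and 9.08% of all genes did so. With Col5a3 these were 4 of 38, a share near that of all genes in this direction. The gaps of Col3a1, Col4a1 and Col6a3 were smaller: Col3a1 was at 424 to 468 and 274 to 358 CPM in WT.

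In sham, Col11a1 and Col12a1 were highest in the libraries with the most atrial Myl7, replicates 2 and 5. Other collagens were too, among them Col1a2, Col8a1, Col16a1 and Col1a1. Col1a1 was at 298 and 217 CPM there and at 184 or less in the other sham libraries. Not all were, as Col4a1 was lowest in sham replicate 5 (430.5 CPM). How many collagens, or of all genes, had this order was not counted. Col11a1 was at 2.11 and 2.61 CPM in sham replicates 2 and 5, where Myl7 was at 173 and 319 CPM, and at 0.741, 0.0460 and 0.183 in sham replicates 1, 3 and 4, where Myl7 was at 11.5 CPM or less. Col12a1, a FACIT of tendons and ligaments, was at 6.94 and 8.28 CPM in the first 2 and at 2.88, 0.828 and 0.685 in the others. In WT both were highest in replicate 2 (1.03 and 5.47 CPM), the WT library with the highest Myl7 (8.09). In Shunt, Col11a1 was highest in replicates 2 and 4 (1.31 and 0.782 CPM; Myl7 84.9 and 204), while Col12a1 was at 6.65 and 3.05 CPM there and at 4.39 in replicate 5, where Myl7 was at 6.60. In TAC replicates 1, 2 and 4, Myl7 was at 1.72, 112 and 152 CPM, Col11a1 at 7.03, 10.4 and 3.44 and Col12a1 at 12.6, 36.0 and 7.39. The part of atrial tissue in these values was not tested beyond the covariate. With atrial expression as a covariate the rise in TAC was 2.97 (adjusted p = 0.0020) for Col11a1 and 2.38 (0.0062) for Col12a1. Both lost their call in the fits with a clock covariate (0.2462 and 0.2233) or a Y-linked covariate (0.5229 and 0.7510), and without TAC replicate 1 or 2. Both also lost it without the low-count filter, in the test against 1.5-fold, with both groups fitted alone and within the same clock phase. Col11a1 lost it with DESeq2, and Col12a1 when any of several other single libraries was left out.

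**Figure D5:**
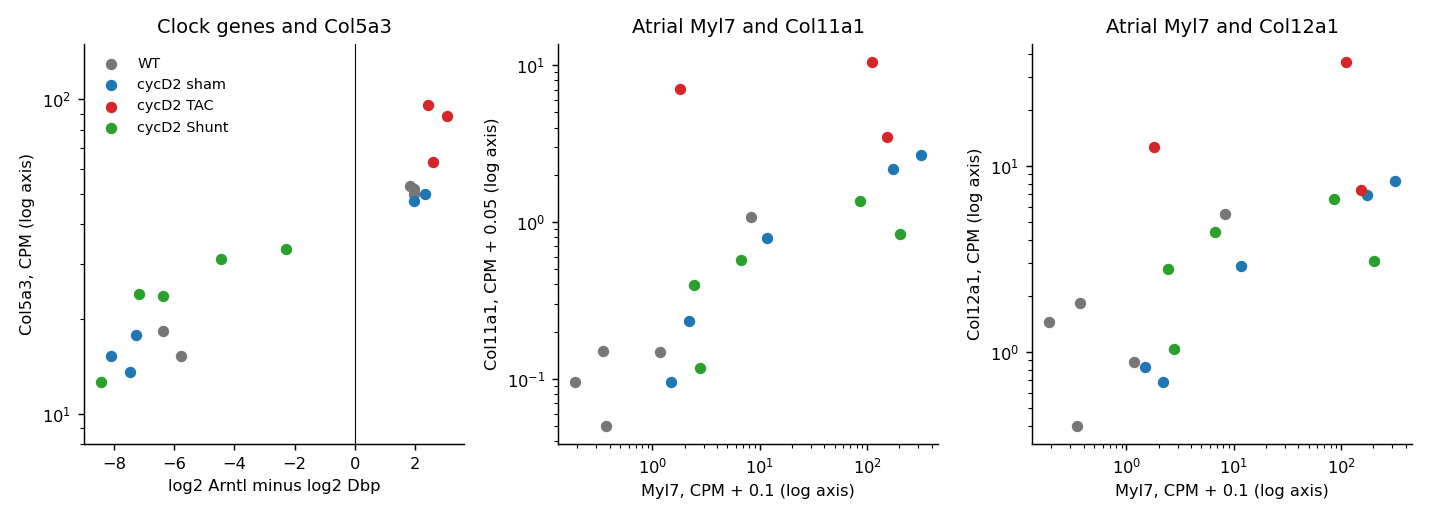
Left, Col5a3 in CPM (log axis) against the log2 difference of Arntl and Dbp; middle and right, Col11a1 and Col12a1 in CPM against atrial Myl7 in CPM (log axes, with 0.1 added to Myl7 and 0.05 to Col11a1 so that zeros can be drawn). Each point is a library, coloured by group; Col5a3 lies at 12.6 to 33.3 CPM left of the line at 0 and at 47.4 CPM or more right of it.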

How the data were processed

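The deposited files hold counts, not normalized, of the reads on each Ensembl gene, 1 table for each of 18 left ventricle libraries, which the authors made from TruSeq RNA v2 libraries (a kit that does not keep the strand), per the labels' protocols. Per the submitters' processing notes, the builds were GRCm38 and mm10, and the tools listed were STAR 2.3.0e, HTSeq 0.6.1p1, DESeq2 1.8, CASAVA 1.8.2, SAMtools 0.1.19 and FastQC; annotation release and strand setting are not given in the sources used here. Symbols, positions and exon lengths came from GENCODE M21 (GRCm38), which matched 36602 of 38355 identifiers. The 5 summary lines of each table were left out.

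Genes passing filterByExpr (minimum count 10, by group; 14876 genes) were scaled by TMM and fitted with 1 mean per group over all 18 libraries with edgeR 4.0.16 in R 4.3.3 (robust quasi-likelihood F test). Calls were made at an adjusted p under 0.05 (Benjamini-Hochberg, over all genes of a comparison), and SEs were derived as the absolute log2 fold change divided by √F. CPM are TMM-scaled, and group values are means ± SD. Chain ratios (0.5 added to each count) were compared by two-sided exact permutation over libraries. The labels name each library as a separate sample, and no label says more of their origin, so a p-value here covers the spread among them, which may be technical. No 2 libraries of a group were duplicates (lowest chi-square per gene 6.71).

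Members, gene lists, ratios and tests were chosen with earlier results of these data known. Every collagen is accounted for by name, and full statistics go to Col3a1 and the 12 genes of smallest p among those called with a log2 fold change of at least 1 in size and a mean log2 CPM of at least 0; of each pathway list the 4 genes of smallest p are given. Single-phase comparisons, Col5a3 with the clock genes and Col11a1 and Col12a1 with Myl7 were chosen after the data were seen. Alternatives were DESeq2 1.42.0, limma-voom (limma 3.58.1), upper quartile or relative log expression scaling, leaving out the low-count filter, at least 1 CPM in 3 libraries, estimation that is not robust, a replicate block, Y-linked, clock and atrial covariates, a test against 1.5-fold, both groups fitted alone, and each library left out.

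Replicate numbers were checked by the correlation of residuals of same-numbered libraries. It was 0.129, 0.151 and 0.157 in TAC and sham, above the limit of 0.1 for a pairing. Yet TAC replicates 1, 2 and 4 were best matched by sham replicates 3, 5 and 4, so a pairing is not shown there. In the other comparisons some correlation was lower than the limit. In Shunt against TAC each shared number was the best match (0.17, 0.139 and 0.0928). On simulated counts with known changes, the test recovered 83%, 85%, 90% and 83% of genes changed 2-fold in sham against WT, TAC against sham, Shunt against sham and Shunt against TAC. The simulated counts followed the trended dispersion and held no differences by sex or clock within groups. They therefore do not show how often a 2-fold change would be found in genes with more spread. Planned protein features were not analysed here.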

Additional observations from a re-analysis of the deposited data

Results flagged for a closer look

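Of 39 groups of collagen values examined for a single distant library, 1 stood out, where chance alone gives about 1 in 20. Col16a1 was at 19.85 CPM in WT replicate 2, while the other 4 WT libraries lay between 13.34 and 14.04 CPM, so that the gap was 0.892 of the whole range. The same library had the highest Myl7, Col11a1 and Col12a1 of its group.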

How the results depend on the processing

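In TAC against sham the 29 rises became 9 with the Y-linked covariate and 22 against sham libraries of the same clock phase; leaving out each library gave 25 to 29 higher and 0 to 1 lower. The replicate block kept 29 of 29 in TAC against sham and 28 of 28 in Shunt against TAC. In Shunt against TAC the 28 lower genes became 17 with the clock covariate and 16 in the test against 1.5-fold, with 24 to 28 over the left-out libraries. In Shunt against sham, DESeq2 gave 1 higher and 1 lower and the replicate block 1 higher, and leaving out any library gave 0 and 0. With the Y-linked covariate, the collagen median there went from 0.17 to -0.63, and many collagens changed sign, among them Col1a1 (-1.04), Col3a1 (-0.86), Col15a1 (-0.34), Col8a1 (-0.39) and Col14a1 (-0.64). Within groups, Y-linked Ddx3y differed strongly only in TAC, at 85.3 CPM in replicate 4 and 0.160 and 0.355 in replicates 1 and 2. The effect of the Y-linked covariate thus rests mainly on this contrast. TAC replicate 4 was the lowest of its group in 26 of the 29 collagens that rose. The cause of the sign changes was not tested.

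In sham against WT, the count of 1 higher became 2 with DESeq2, the replicate block or the clock covariate, and 0 with at least 1 CPM in 3 libraries (which removes Col7a1), in the test against 1.5-fold, with both groups fitted alone and within either clock phase (1 to 3 over left-out libraries). The count of 2 lower became 4 with limma-voom and 0 in the test against 1.5-fold and within either phase (1 to 4 over left-out libraries). Calls among all genes also fell within either phase, where fewer libraries were compared. Small values changed sign: Col1a1 to -0.17 with the atrial covariate and -0.02 within libraries with Dbp above Arntl (-0.01 to 0.34 over left-out libraries), Col15a1 to 0.04 with the clock covariate and 0.16 within libraries with Arntl above Dbp (-0.17 to 0.05), and Col3a1 and Col8a1 to 0.13 and 0.05 in the latter. Low-level members such as Col7a1 rest on few counts, and counting error limits them.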
